A study of Saccharomyces cerevisiae with 12 samples.

Results

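The response of a Saccharomyces cerevisiae snf1 mutant to a fall in glucose was measured on 2 dye-swapped 2-colour arrays, out of 12 arrays in the series. They are the 2 arrays whose titles name the snf1 mutant at 0.05% against 2% glucose, and the result studied is the mean of their log2 ratios against 0 for each gene with both values. Both values were present for 3703 genes, of 5857 genes with a value on at least 1 array of the series. The other groups are snf1 cells at alkaline pH (4 arrays), the wild type at 0.05% against 2% glucose (2 arrays) and the wild type at alkaline pH (4 arrays).

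The low-glucose cultures of both genotypes are in strain DBY746. The labels call the mutant "snf1 mutant" there and name no allele, whereas the alkaline-pH cultures are DBY4741 and its snf1::KanMX derivative, whose label reads snf11::KanMX on array 1. Cells grew at 28 °C in YPD, a rich glucose medium, to an absorbance of 0.6 in 50 ml. They were sedimented, washed with water and placed for 15 min in fresh YP medium with 0.05% glucose (treated) or 2% glucose (control), so the control had the same spin and wash. At alkaline pH, cells had 10 min in 16 mM KOH (pH 8.0) against 16 mM KCl (about pH 5.5). On array 1 of each low-glucose group the treated RNA carried Cy5, and on array 2 it carried Cy3.

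Snf1 is the yeast AMP-activated protein kinase. When glucose is scarce it is phosphorylated by upstream kinases, removes the repressor Mig1 from the nucleus and activates Cat8 and Adr1, and so permits the use of sucrose, ethanol, lactate and other carbon sources. Protein kinase A works in parallel: high glucose keeps it active, which favours ribosome synthesis and restrains the stress activators Msn2 and Msn4. Cells without Snf1 activity still grow on glucose but not on most other carbon sources.

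The snf1 low-glucose arrays held 4155 and 4056 values, fewer than any of the other 10 arrays, with medians of 0.112 and 0.038. The wild-type low-glucose arrays held 5463 and 5370. Each value is a log2 ratio, taken as treated over control. That direction is likely from the order in the titles and is not stated. The lowest r among 36 pairs of arrays with opposite dye was positive, at 0.539. Spots were dropped by the authors, per the labels, when smaller than 120 µm or dimmer than 100 fluorescence units, and 805 genes had a value on 1 snf1 low-glucose array alone, 1349 on neither although measured elsewhere. Of 36 genes of glucose signalling and related pathways chosen for description, 25 had both values; SNF1, ADH2, FBP1, PCK1, ADR1, CAT8, INO1 and ENA1 had none there, and MIG3, HXT5 and PHO89 had 1. SNF1 itself had a value on 1 array of the snf1 strain and 1 of the wild type, both at alkaline pH (0.16 and 0.29), and these ratios between treatments do not check the genotype labels. Among mating-type genes, the alpha-specific MF(ALPHA)1, MF(ALPHA)2, SAG1 and STE3 had values on the snf1 arrays, as had the a-specific STE2, while BAR1 and MFA2 had none.

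On the snf1 arrays, 14 genes shared the values -0.125 and -0.801 within 0.005. They included 7 genes of glycolysis (CDC19, ENO1, ENO2, PDC1, TDH1, TDH2 and TDH3), the elongation factor genes TEF1 and TEF2, BUD14 and 4 open reading frames. On the wild-type low-glucose arrays the 7 glycolysis genes also shared 1 pair of values, 0.068 and -0.425, and most of the others lay within 0.005 of it. Whether these spots were at a limit of the scanner was not tested, none of the 14 was called in snf1 at low glucose, and no direction is given for them.

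The mutant responded broadly. At 0.05% glucose 1696 of the 3703 genes (45.8%) differed from 2% glucose at an adjusted p under 0.05: 1070 (28.9%) were higher and 626 (16.9%) lower. At least 2-fold changes passed the test for 319 higher (8.61%) and 177 lower genes (4.78%). The median log2 ratio over all tested genes was 0.12. The excess of rises was smaller once the arrays were centred on their medians, with 933 genes higher and 721 lower. Centring and scaling all arrays to the same spread gave 854 higher and 680 lower, and quantile normalization 868 and 713. Array 1 and array 2 correlated across genes with a Pearson r of 0.879 (genes are not independent replicates), and their signs matched for 2958 genes. Of the called genes, 6 had opposite signs on the 2 arrays. The count depends on both arrays: 817 genes were called without array 1 and 1047 without array 2. With 1 array left out snf1 at low glucose is a single sample, which is assumed to vary like the other groups, here and in all such counts. Of the 243 calls and values tabulated for named genes, 87 lost their call without array 1 and 64 without array 2. Nothing in the labels says that the 2 arrays came from separate cultures, so the p-values measure the spread between arrays, which may be technical. That spread is not of the 2 snf1 arrays alone. It was pooled within groups over all arrays of the series, most of them at alkaline pH and in another strain. With only the 4 low-glucose arrays fitted, 2064 genes were called in snf1. Whole cultures were compared, so a change in some of the cells and a smaller change in all of them cannot be told apart.

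**Figure D1:**
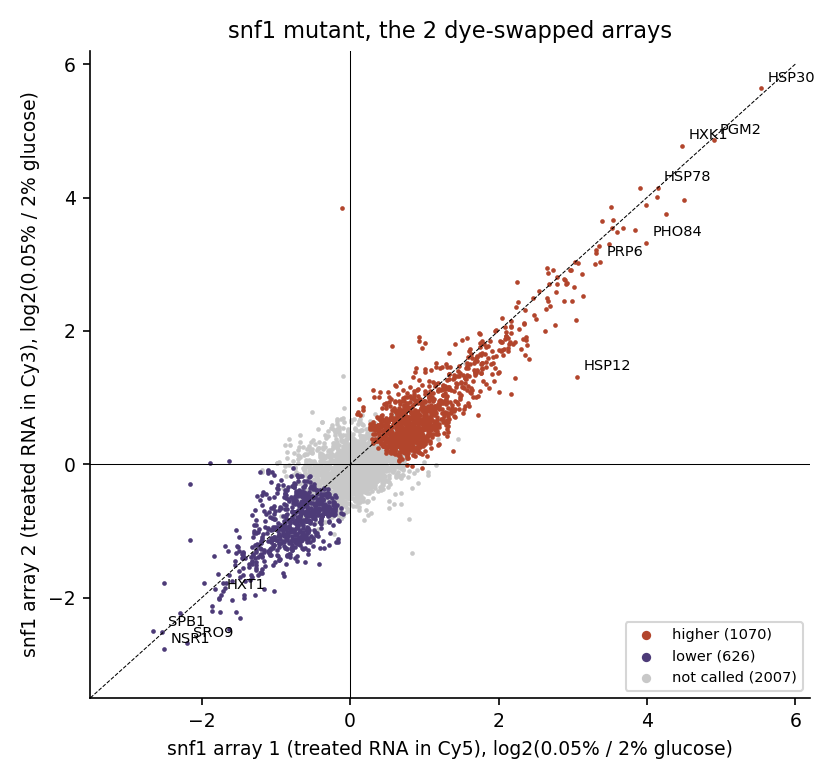
Log2 ratio of 0.05% over 2% glucose in the snf1 mutant on array 1 (x axis) and array 2 (y axis), each point 1 of 3703 genes. Red points are the 1070 genes called higher, purple points the 626 called lower and grey points were not called; the dashed line marks equal values, and HSP12 is seen below it, at 3.06 and 1.31.

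The largest rises were in genes of heat shock, glucose phosphorylation and storage carbohydrate. HSP30, a plasma membrane protein that restrains the proton pump Pma1, had log2 ratios of 5.54 and 5.63 in snf1, against 3.33 and 3.64 in wild type. Its mean rise in snf1 was 48.1-fold (adjusted p = 9.38e-05). PGM2, the main phosphoglucomutase, stood at 4.90 and 4.86 in snf1, against 4.68 and 4.79 in wild type. HXK1, a hexokinase repressed by glucose, stood at 4.47 and 4.78, against 4.66 and 4.67 in wild type, a 24.7-fold rise in snf1 (adjusted p = 2.71e-08). The genotypes' values overlapped for HXK1 and did not overlap for PGM2, and the differences did not pass the test (adjusted p = 0.92 for HXK1 and 0.81 for PGM2). After all arrays were scaled to the same spread both differences were called, at 1.81 for HXK1 and 2.00 for PGM2.

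Butanediol dehydrogenase-like BDH2 was 4.50 and 3.97 in snf1, against 5.78 and 5.95 in wild type. AIM17, a mitochondrial protein, was 4.14 and 4.01, against 5.66 and 5.95 in wild type. The respiratory growth gene RGI1 was 3.52 and 3.86, against 6.53 and 7.5 in wild type. These 3 genes rose strongly in the mutant and further in the wild type. After all arrays were scaled to the same spread the differences turned positive for BDH2 (0.59) and AIM17 (0.50), and the difference for RGI1 was no longer called. The remaining genes among the 15 largest rises were HSP78, HSP26, SSA4, BTN2, MSC1, PHO84, NCE103, EMI2 and HSP42, with snf1 means between 3.54 for HSP42 and 4.15 for HSP78. The v-SNARE-binding protein gene BTN2 had the widest standard error of them, 1.41 on a mean of 3.93 (adjusted p = 0.038).

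The 15 largest falls were mostly in genes of ribosome assembly. NSR1, a nucleolar protein needed for pre-rRNA processing, was -2.51 and -2.77 in snf1, against -3.66 and -3.90 in wild type, a mean fall of 6.22-fold in snf1 (adjusted p = 7.35e-07). RRP12, which serves ribosomal subunit export, was -2.66 and -2.50, against -4.18 and -4.57 in wild type. SPB1, an rRNA methyltransferase, was -2.54 and -2.52, against -4.18 and -4.41 in wild type. On all 4 arrays these genes were below 0, and the wild-type values lay beyond the snf1 values. After scaling to the same spread the difference turned negative for NSR1 (-0.38) and was no longer called for RRP12 and SPB1, and quantile normalization gave the same for these 3 genes (-0.40 for NSR1). SRO9, SSF1, RLP24, ARX1, DBP2, SRP40, ERD2, RPA34, NHP2, NOP4, SNU13 and UTP4 completed the set, with snf1 means between -2.44 for SRO9 and -1.87 for UTP4. SRO9 is an RNA-binding protein of translation and ERD2 is the receptor that returns proteins to the endoplasmic reticulum.

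**Figure D2:**
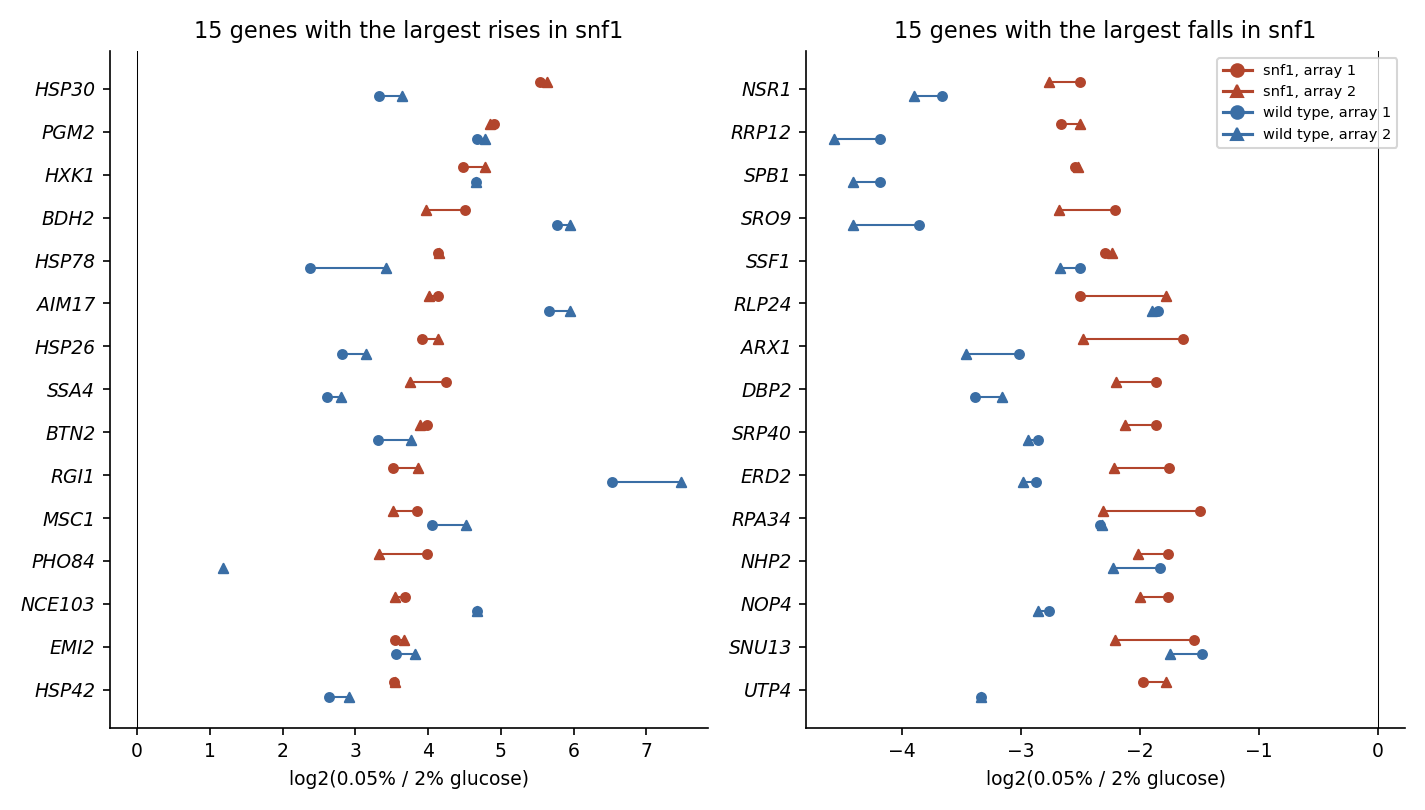
Log2 ratio of 0.05% over 2% glucose (x axis) for the 15 genes, of those with a standard name, with the largest called rises (left) and falls (right) in the snf1 mutant. Red marks snf1 and blue wild type, circles array 1 and triangles array 2, joined by a line; PHO84 has 1 wild-type value, and the wild-type values of NSR1, RRP12, SPB1 and UTP4 lie left of the snf1 values.

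Genes of glucose uptake and phosphorylation that are induced at low glucose rose as a group. Of 7 tested members 6 were called higher and none lower (median log2 ratio 2.14, against 0.12 over all genes). The list counts from both arrays stand from here on beside 28.9% of all tested genes called higher in snf1 and 16.9% lower. Counts with 1 array left out do not stand beside these shares, since fewer of all genes were then called. A fall in such a count is therefore not particular to its list. The wild-type list counts stand beside 33.7% of all tested genes called higher in wild type and 31.5% lower. For the difference between genotypes, 27.6% of tested genes were called higher in snf1 and 13.0% lower. EMI2, a glucokinase-related protein, was 3.54 and 3.67 in snf1, against 3.56 and 3.82 in wild type. Glucokinase, GLK1, was 3.12 and 2.85, against 2.71 and 2.05 in wild type. Neither difference between genotypes passed the test (adjusted p = 0.80 for EMI2 and 0.14 for GLK1), though the difference for EMI2 was called after scaling (1.36).

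The hexose transporters did not move together. HXT6, a high-affinity transporter nearly identical in sequence to HXT7 so that the probes may share signal, was 2.37 and 1.92 in snf1, against 3.19 and 3.35 in wild type. HXT7 was 0.73 and 1.01 in snf1, against 3.29 and 3.59 in wild type, and the difference was -2.57 (adjusted p = 2.51e-05). HXT2, of high affinity, was -0.11 and -0.35 in snf1 and did not pass the test (adjusted p = 0.745), against 2.31 and 2.35 in wild type (adjusted p of the difference = 0.016). HXT4 rose less in snf1, at 0.88 and 0.79, against 1.29 and 2.10 in wild type (adjusted p of the difference = 0.023). The difference for HXT2 lost its call after scaling and with any 1 of the 4 arrays left out, and that for HXT4 after scaling, after quantile normalization and without array 2 of either genotype. HXT1, the low-affinity transporter induced by high glucose, was -1.74 and -1.96 in snf1, against -2.05 and -1.35 in wild type, and the difference between its falls did not pass the test (adjusted p = 0.66). HXT3, also of low affinity, was 0.29 and -0.01 and was not called in snf1.

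Of 11 tested regulators of glucose repression, 4 were called higher and 1 lower in snf1. HAP4, the activator subunit of the Hap complex for respiratory genes, was 2.66 and 2.94 in snf1, against 2.17 and 2.64 in wild type. USV1, a zinc-finger activator, was 1.02 and 0.85, against 1.99 and 2.14 in wild type. MIG1 was 0.38 and 0.53, against 1.19 and 1.35 in wild type, and the snf1 rise was smaller (difference -0.82, adjusted p = 0.0058). MIG2, a related repressor, was -0.33 and -0.59 in snf1 and 0.54 and 0.21 in wild type, so it fell in the mutant and rose in the wild type (difference -0.84, adjusted p = 0.0026). The difference for MIG1 lost its call after scaling (-0.36), after quantile normalization (-0.49), without array 1 of snf1 and without array 2 of the wild type, and the snf1 calls of MIG1 and MIG2 were lost with either snf1 array left out. Without array 1 the counts for these regulators were 2 and 0, and the same without array 2.

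Among 5 tested subunits and upstream kinases of Snf1, 3 were called higher and 1 lower, and none was called without array 1. The beta subunit GAL83 was 0.98 and 0.60 in snf1, against 0.41 and 0.44 in wild type. The gamma subunit SNF4 was 0.78 and 0.10, against 0.64 and 0.81 in wild type. The upstream kinase SAK1 was -0.61 and -0.25, against -1.19 and -1.35 in wild type. In the Ras and protein kinase A pathway, 10 of 22 tested members were higher and 3 lower (7 and 0 without array 1, 10 and 1 without array 2). YAK1, a kinase opposed by protein kinase A, was 2.67 and 2.45 in snf1, against 1.92 and 1.93 in wild type. The phosphodiesterase PDE1 was 2.34 and 1.88, against 2.03 and 1.81 in wild type. TPK3, a catalytic subunit of protein kinase A, fell, at -0.84 on both snf1 arrays, against -1.11 and -1.64 in wild type.

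Genes for the use of other carbon sources included some of the largest differences between the genotypes. SUC2, invertase, the classical Snf1-dependent gene, was 1.17 and 0.67 in snf1, against 4.03 and 3.98 in wild type. It rose 1.89-fold in snf1 and 16.0-fold in wild type, and the difference was -3.08 (adjusted p = 2.11e-05). The call for SUC2 in snf1 was lost without array 1. JEN1, the lactate and pyruvate transporter, was -0.07 and -0.00 in snf1, against 4.53 and 4.59 in wild type (difference -4.60, adjusted p = 2.45e-05). The groups did not overlap for SUC2 or JEN1, as for all 474 genes whose difference was called lower in snf1. SUC2 was the 1 tested member among 9 genes of sucrose and maltose use, so no more can be said of that group in snf1.

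Of 18 gluconeogenesis and glyoxylate cycle genes, 9 could be tested in snf1; 3 were called higher and 1 lower (1 and 1 without array 1, 2 and 1 without array 2). MLS1, malate synthase, was 2.36 and 2.32 in snf1, against 2.65 and 3.11 in wild type (adjusted p of the difference = 0.22). PYC1, pyruvate carboxylase, was 1.25 and 1.19 in snf1, against -0.11 and -0.07 in wild type, where its mean was 1.14 and called with a trend on coding length removed. The cytosolic aldehyde dehydrogenase ALD6 was -1.43 and -1.96 in snf1, against 0.12 and -0.43 in wild type, the 1 member called lower in snf1. ICL1, isocitrate lyase, was 0.50 and 0.20 in snf1 and not called. In wild type, 12 of 16 tested members were higher and 1 was lower.

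Storage carbohydrate genes rose nearly throughout: 13 of 15 tested genes of trehalose and glycogen were higher and none was lower (median 1.60). TSL1, a regulatory subunit of trehalose synthase, was 3.39 and 3.64 in snf1, against 3.25 and 3.39 in wild type. TPS1, trehalose-phosphate synthase, was 2.90 and 2.76, against 2.46 and 2.43 in wild type. The differences for TSL1 and TPS1 did not pass the test (adjusted p = 0.69 for TSL1 and 0.14 for TPS1) but were called after scaling (1.51 for TSL1 and 1.33 for TPS1). TPS2, the trehalose-phosphate phosphatase, was 3.49 and 3.30 in snf1, against 1.54 and 1.69 in wild type, with a difference of 1.78 (adjusted p = 3.57e-04). Glycogen synthase GSY1 went the other way, at 3.31 and 3.21 in snf1, against 4.65 and 5.05 in wild type (difference -1.59, adjusted p = 0.030), though after scaling the difference for GSY1 was 0.26, and its call was also lost after quantile normalization, without either snf1 array and without array 2 of the wild type. UGP1, which makes UDP-glucose, was 3.31 and 3.17, against 2.37 and 2.25 in wild type.

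General stress genes were called higher in 29 of 31 tested cases and lower in 1 (median 2.43). In wild type 31 of 33 were higher and none was lower (median 2.74). The snf1 response was called lower than the wild-type one for 14 of 31 members and higher for 3 (median difference -0.50). Over all tested genes 13.0% of differences were called lower in snf1 and 27.6% higher. CTT1, the cytosolic catalase, was 3.30 and 3.0 in snf1, against 1.46 and 1.49 in wild type (difference 1.68, adjusted p = 0.0012). HSP12, a membrane-stabilising protein of Msn2 and Msn4 control, was 3.06 and 1.31 in snf1, against 4.06 and 4.69 in wild type (difference -2.19, adjusted p = 0.011). That difference lost its call after scaling (-0.65), with the length trend removed (-1.69) and without array 2 of either genotype, and the snf1 call was lost without array 1. MSC1 was 3.85 and 3.52, against 4.06 and 4.52 in wild type. SPG4, a stationary-phase gene, fell in snf1 at -0.39 and -0.57, against 0.91 and 0.58 in wild type. MSN4 itself was 0.52 and 0.12 in snf1 and not called (adjusted p = 0.23), against 1.04 and 1.67 in wild type.

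Chaperone genes mostly rose in the mutant. The list is mainly cytosolic and also holds the mitochondrial chaperones HSP60, HSP10, SSC1 and MDJ1 and HSF1, the heat shock transcription factor. Of its members 19 of 22 tested were higher and 1 lower in snf1 (median 1.06), against 8 higher and 8 lower of 24 in wild type (median 0.28). The wild-type counts were near the shares of all genes there, 33.7% higher and 31.5% lower. The difference between genotypes was called higher in snf1 for 11 of 22 and lower for none. Counts in snf1 were 8 higher without array 1 and 9 without array 2. SIS1, an Hsp40 co-chaperone, was 2.96 and 2.91 in snf1, against 0.66 and 0.86 in wild type (difference 2.18, adjusted p = 0.0042). SSE2, an Hsp70 nucleotide exchange factor, was 2.93 and 2.73, against 1.52 and 1.61 in wild type (difference 1.26, adjusted p = 8.74e-04). The co-chaperone FES1 was 2.97 and 2.92 in snf1, against 1.84 and 1.87 in wild type, a difference that did not pass the test (adjusted p = 0.47). SSB2, a ribosome-bound Hsp70, fell in both, at -0.58 and -0.76 in snf1 and -0.34 and -0.43 in wild type.

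In the endoplasmic reticulum list 5 of 22 tested genes were higher in snf1 and none lower, a share below the 28.9% of all tested genes. The list median was 0.15, against 0.12 over all genes. ERO1, which oxidises protein thiols, was 2.10 and 1.93 in snf1, against 0.47 and 0.61 in wild type. KAR2, the Hsp70 of that compartment, was 1.33 and 1.36, against -0.32 and -0.24 in wild type (difference 1.63, adjusted p = 0.0013). For ERO1 and KAR2 the groups did not overlap, which also held for 1006 of the 1007 genes whose difference was called higher in snf1. In the oxidative stress list 12 of 20 were higher and none lower, among them CCP1, mitochondrial cytochrome c peroxidase, at 1.66 and 1.41 in snf1, against 1.56 and 1.16 in wild type. Without array 1 that count was 6, and without array 2 it was 7.

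**Figure D3:**
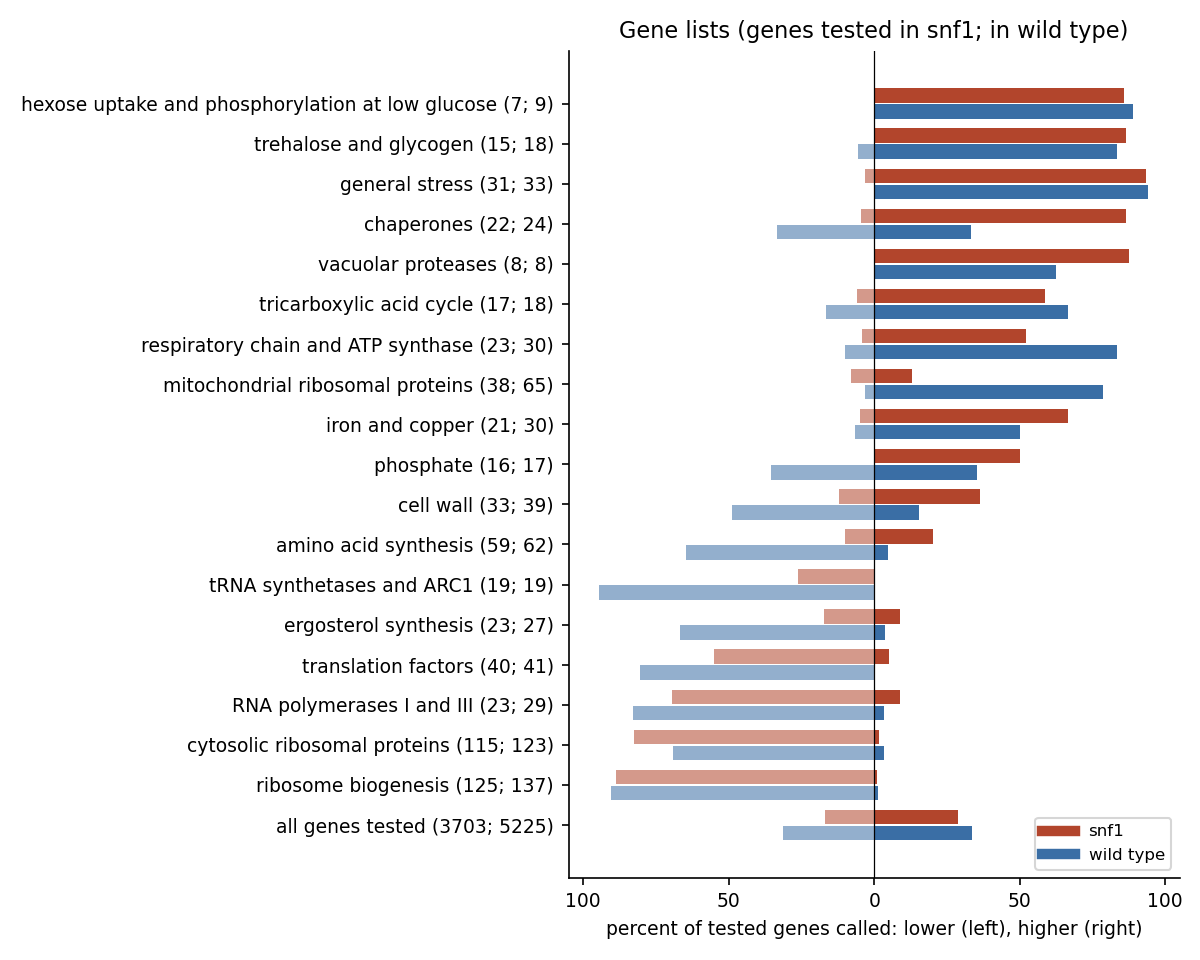
Percent of a list's genes that passed the test upward (bars to the right) and downward (paler bars to the left) at 0.05% glucose for 18 gene lists and all genes, snf1 in red above wild type in blue. The numbers after each name are the genes tested in snf1 and in wild type; 19 of 22 chaperone genes were higher in snf1, against 8 of 24 in wild type, and 5 of 38 mitochondrial ribosomal protein genes, against 51 of 65 in wild type.

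Genes of respiratory metabolism responded in part. In the tricarboxylic acid cycle 10 of 17 tested genes were higher and 1 lower in snf1 (5 and 1 without array 1). In wild type 12 of 18 were higher and 3 lower, and the medians were 0.63 in snf1 and 0.67 in wild type. The difference was called lower in snf1 for 4 of 17 and higher for 2. CIT1, mitochondrial citrate synthase, was 1.91 and 1.70 in snf1, against 1.60 and 1.74 in wild type. CIT2, the peroxisomal form and a target of the retrograde pathway, was 2.50 and 2.17, against 4.87 and 5.0 in wild type (difference -2.60, adjusted p = 3.81e-04).

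In the respiratory chain and ATP synthase list 12 of 23 tested genes were higher and 1 lower in snf1 (median 0.48), against 25 higher and 3 lower of 30 in wild type (median 1.39). The snf1 response was called lower than the wild-type response for 11 of 22 members and higher for 2. NDI1, the internal NADH dehydrogenase, was 2.77 and 2.59 in snf1, against 3.02 and 2.89 in wild type. CYC7, a cytochrome c isoform, was 1.01 and 1.10, against 3.68 and 4.34 in wild type. TIM11, an ATP synthase subunit, fell in snf1 at -0.45 and -0.39, against 1.73 and 1.23 in wild type (difference -1.90, adjusted p = 8.56e-05). Counts of higher genes in snf1 were 5 without array 1 and 7 without array 2.

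Mitochondrial ribosomal protein genes rose in wild type and mostly were not called in snf1. Of 38 tested in snf1, 5 were higher and 3 lower (median 0.11; 2 and 1 without array 1, 3 and 0 without array 2), against 51 higher and 2 lower of 65 in wild type (median 0.79). The snf1 response was called lower for 20 of 38 and higher for none. MRPL28 was 0.93 and 0.45 in snf1, against 1.59 and 1.07 in wild type. MRPS12 was 0.51 and 0.47, against 1.48 and 1.5 in wild type. MRPS18 was -0.50 and -0.72, against 0.79 and 0.90 in wild type, and its groups lay on opposite sides of 0.

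In glycolysis 7 of 22 tested genes were higher and none lower, where 28.9% of all tested genes were higher. The 7 genes at the shared values were not among those called. Without them the count is 7 of 15, which leaves out uncalled genes only and so does not stand beside 28.9%. Without array 1 the count was 3, and without array 2 it was 4. PYK2, the minor pyruvate kinase, was 2.88 and 2.78 in snf1, against 2.50 and 2.71 in wild type. TYE7, an activator of glycolytic genes, was 2.46 and 2.50, against 1.27 and 1.15 in wild type. GCR1, the principal activator of these genes, was 0.93 and 1.26 in snf1, against -0.79 and -0.22 in wild type (difference 1.60, adjusted p = 0.0045).

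Genes of ribosome production fell on a broad front. Of 125 tested ribosome biogenesis genes 111 were lower and 1 higher in snf1 (median -1.12), against 124 lower and 2 higher of 137 in wild type (median -1.86). The exception in snf1 was NOP1, the rRNA methyltransferase fibrillarin, at 1.95 and 1.44 in snf1, against 1.11 and 0.90 in wild type. Of 115 tested cytosolic ribosomal protein genes 95 were lower and 2 higher in snf1 (median -0.82), and in wild type 85 were lower and 4 higher (median -0.70). RPS9A was -1.42 and -1.75 in snf1, against -1.53 and -1.56 in wild type, and RPS10A was -1.19 and -1.39, against -1.29 and -1.32. Many ribosomal protein genes have a near-identical copy, so their probes may share signal. Without array 2 the count of lower ribosomal protein genes in snf1 was 62, and without array 1 it was 67.

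RNA polymerase I and III genes were lower in 16 of 23 tested cases and higher in 2 (11 lower without array 1 and 12 without array 2). RPA34, a polymerase I subunit, was -1.49 and -2.31 in snf1, against -2.34 and -2.31 in wild type. RPA49, its partner, was -1.04 and -1.51, against -1.71 and -2.27 in wild type. Of 40 tested translation factors 22 were lower and 2 higher in snf1, against 33 lower and none higher of 41 in wild type. TIF4631, the main eIF4G, was -1.01 and -1.46 in snf1, against -3.22 and -2.93 in wild type, while its paralog TIF4632 was 0.64 and 0.49, against -1.11 and -1.19. NIP1, a subunit of eIF3, was -1.04 and -0.95, against -2.85 and -3.04 in wild type. The count of lower translation factors in snf1 was 12 without array 1 and 9 without array 2.

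For 19 genes of cytosolic tRNA synthetases, among them ARC1, a cofactor of these enzymes, the genotypes stood apart: 5 were lower and none higher in snf1 (median -0.22), against 18 lower and none higher in wild type. The snf1 response was called higher than the wild-type one, that is less negative, for 18 of 19. These counts are not corrected for coding length, which moved with the difference between genotypes, as described below. The leucyl enzyme CDC60 was -0.88 and -0.39 in snf1, against -3.18 and -2.89 in wild type (difference 2.40, adjusted p = 4.12e-05). The alanyl enzyme ALA1 was -0.68 and -0.77, against -2.43 and -2.33 in wild type. Neither gene's groups overlapped, which also held for 1006 of the 1007 genes over all lists and beyond whose difference was called higher in snf1. In snf1, 2 genes of this list were lower without array 1 and 1 without array 2.

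Amino acid synthesis genes were called higher in 12 of 59 and lower in 6 of 59 tested cases in snf1, against 3 higher and 40 lower of 62 in wild type. The difference was higher in snf1 for 35 of 58 and lower for none. HOM3, aspartate kinase, was 1.58 and 1.60 in snf1, against -1.43 and -1.59 in wild type. CPA1, the small subunit of carbamoyl-phosphate synthase for arginine, was 1.93 and 1.53, against -0.13 and -0.20 in wild type. HIS4 was 1.73 and 1.98, against -0.58 and -0.03 in wild type. LEU2 was 1.72 and 1.55, against 1.45 and 1.48 in wild type, with no called difference (adjusted p = 0.68). ILV5, an enzyme of branched-chain amino acids, fell in both, at -1.11 and -1.30 in snf1 and -3.02 and -2.98 in wild type. Higher amino acid genes in snf1 numbered 3 without array 1 and 6 without array 2.

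Lipid synthesis differed between the genotypes in many of its genes. Ergosterol genes were lower in 4 and higher in 2 of 23 tested cases in snf1, against 18 lower and 1 higher of 27 in wild type, and 16 of 23 differences were called higher in snf1 (2 lower in snf1 without array 2). HMG1, an HMG-CoA reductase, was -0.94 and -1.07 in snf1, against -2.38 and -2.57 in wild type. ERG12, mevalonate kinase, was 1.02 and 0.63, against 0.03 and -0.15 in wild type. ACC1, acetyl-CoA carboxylase, whose protein Snf1 inhibits by phosphorylation, was -0.50 and -0.59 in snf1, against -3.74 and -3.51 in wild type (difference 3.08, adjusted p = 1.10e-05). RNR1, the large subunit of ribonucleotide reductase, was -1.78 and -1.64, against -3.97 and -3.70 in wild type. In purine and pyrimidine synthesis 9 of 33 tested genes were lower and 4 higher in snf1 (6 and 1 without array 1, 4 and 4 without array 2).

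Nutrient uptake genes included strong rises. PHO84, the high-affinity phosphate transporter, was 3.99 and 3.32 in snf1 (adjusted p = 7.49e-05) and had 1 value in wild type, 1.18, so the genotypes could not be compared. Of 16 tested phosphate genes 8 were higher and none lower (2 without array 1). PHO81, the inhibitor of the Pho85 kinase, was 0.80 and 0.84 in snf1, against -0.70 and -1.08 in wild type, where its mean was 0.34 and called with a trend on coding length removed. The polyphosphate synthase subunit VTC4 was 0.76 and 0.46, against -1.22 and -0.36. Iron and copper genes were higher in 14 of 21 tested cases and lower in 1 (5 and 1 without array 1). CTR1, the copper transporter, was 2.17 and 2.08 in snf1, against 2.20 and 2.45 in wild type. The iron-sulfur scaffold ISU1 was 1.78 and 1.45, against 2.23 and 2.47 in wild type.

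Amino acid permease genes DIP5 (2.35 and 1.64) and BAP2 (1.97 and 2.01) rose in snf1, against 2.12 and 2.17 for DIP5 and 1.87 and 1.56 for BAP2 in wild type. GAP1, the general amino acid permease, was -0.78 and -0.82 in snf1 and had 1 wild-type value, 0.04. Over all tested genes 28.9% were higher in snf1 and 16.9% lower. Over the nitrogen list 8 of 24 were higher and 3 lower (3 and 1 without array 1, 5 and 1 without array 2).

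Among 33 tested cell wall genes 12 rose and 4 fell in snf1, against 6 higher and 19 lower of 39 in wild type. Of 33 differences 24 were called higher in snf1. Over all tested genes 28.9% were higher in snf1, and 27.6% of differences were called higher. PIR3, an O-glycosylated wall protein, was 2.88 and 2.44 in snf1, against 1.09 and 1.26 in wild type. PST1, a wall protein of the integrity pathway, was 3.04 and 2.16, against 0.78 and 0.61 in wild type. SLT2, the kinase of that pathway, was 1.41 and 1.30, against 0.77 and 0.54 in wild type. Higher cell wall genes numbered 6 without array 1 and 7 without array 2.

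Vacuolar protease genes were higher in 7 of 8 tested cases, led by APE1, an aminopeptidase, at 2.09 and 1.89 in snf1, against 1.38 and 1.80 in wild type (3 of 9 were called without array 1). Proteasome genes were higher in 12 of 33 cases and lower in none, but none was called without array 1 and 7 without array 2. RPN2, a regulatory particle subunit, was 0.65 and 0.50 in snf1, against -1.27 and -1.31 in wild type. In the mating list 6 of 17 were lower and 2 higher (4 and 0 without array 1, 3 and 2 without array 2). FAR1, which arrests the cycle in response to pheromone, was -1.10 and -0.95 in snf1, against -2.28 and -2.42 in wild type, whereas the kinase gene FUS3 was 1.10 and 0.58, against 2.27 and 2.39. Among cyclins, CLN3 was 0.48 and 0.17 in snf1, against -1.33 and -1.35 in wild type (difference 1.67, adjusted p = 2.91e-05); the snf1 call for CLN3 itself was lost under 9 of 12 alternatives.

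The comparison of the genotypes asks which part of the response to low glucose differs in the snf1 mutant. In wild type 3405 genes out of 5225 passed the test (65.2%), of which 1759 rose (33.7%) and 1646 fell (31.5%). At least 2-fold, 795 were higher (15.2%) and 872 lower (16.7%). These shares, and the wild-type list counts and medians above, rest on more genes than those of snf1. Both wild-type values and no snf1 low-glucose value were present for 839 genes. Of the 1070 genes higher in snf1, 688 were also higher in wild type, which is 64.3% of the snf1 genes and 57.7% of the 1192 higher wild-type genes that were tested in snf1. Of the 626 lower in snf1, 521 were also lower in wild type, 83.2% of the snf1 genes and 40.0% of the 1303 lower wild-type genes tested in snf1. Opposite calls were fewer: 94 genes were higher in snf1 and lower in wild type, and 15 were lower in snf1 and higher in wild type. Over the 3651 genes measured in both, the standard deviation of the mean log2 ratio was 0.755 in snf1 and 1.235 in wild type, and 2671 genes (73.2%) had the same sign.

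The difference itself, snf1 minus wild type, was called for 1481 of 3651 genes (40.6%): 1007 were higher in snf1 (27.6%) and 474 lower (13.0%). Differences of at least 2-fold were called for 613 genes higher (16.8%) and 256 lower (7.01%). After all arrays were scaled to the same spread 467 differences were called, 360 higher and 107 lower, and after quantile normalization 589, 361 higher and 228 lower. Without array 2 of the wild type 962 were called. Of the list differences given above, those called higher in snf1 after scaling were 9 of 22 for chaperones, 8 of 19 for tRNA synthetases, 9 of 58 for amino acid synthesis, 12 of 33 for the cell wall, 3 of 23 for ergosterol and 3 of 124 for ribosome biogenesis, where 56 had been called without scaling. Those called lower after scaling were 5 of 22 for the respiratory chain and 4 of 38 for mitochondrial ribosomal proteins. Of 64 differences tabulated for named genes, 38 kept their side of the threshold after scaling, 9 turned in sign, 10 lost their call and 7 gained one.

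**Figure D4:**
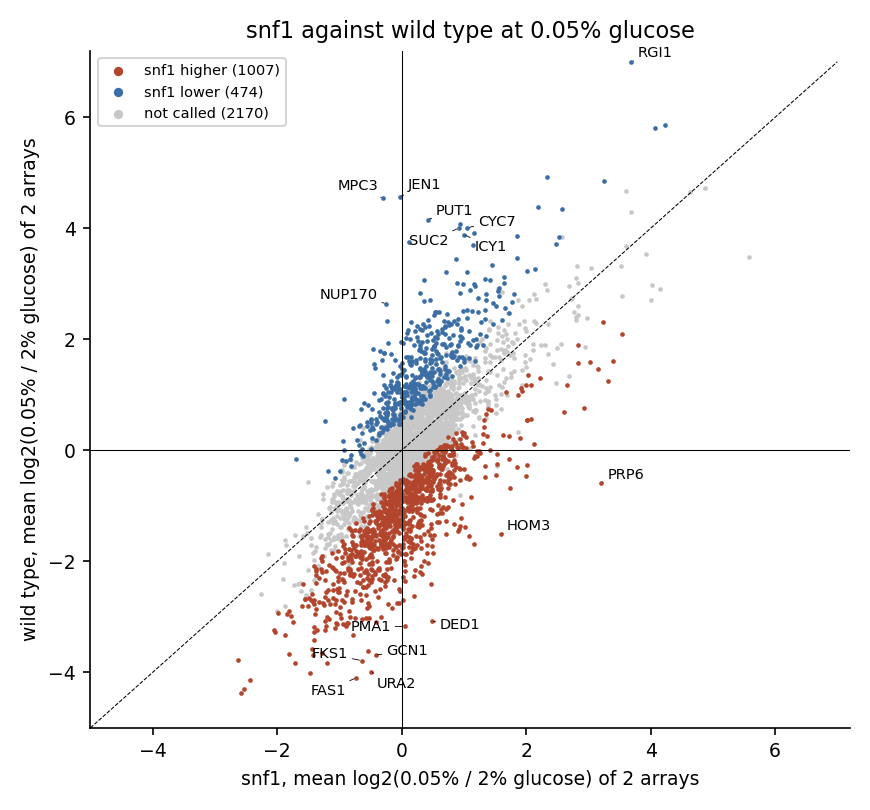
Mean log2 ratio of 0.05% over 2% glucose in snf1 (x axis) and in wild type (y axis), each point 1 of 3651 genes and each mean from 2 arrays. Red points are the 1007 genes whose response was called higher in snf1 and blue points the 474 called lower. The dashed line marks equal responses, and the points spread more along the y axis. The named genes are the 8 largest differences in each direction among genes with a standard name and no overlap of arrays.

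Coding length moved with this difference. On the wild-type arrays the log2 ratio correlated with log2 coding length across genes at r = -0.432 and -0.388, on the snf1 arrays at -0.077 and -0.022, and the difference correlated at 0.53. Genes over 3000 bases had median log2 ratios of -0.33 and -0.17 on the snf1 arrays, against -1.32 and -1.18 on the wild-type arrays. Among 258 such genes the difference was higher in snf1 for 197 and lower for 7, while among 1163 genes of up to 1000 bases it was higher for 83 and lower for 297. With the trend on length removed from each array, 1180 differences were called, 741 higher and 439 lower. The snf1 counts changed little in that setting, to 1625. In wild type 312 of 382 genes over 3000 bases were lower and 20 higher. Of 1830 genes of up to 1000 bases there, 917 were higher and 291 lower. The list counts above, in each genotype and for the difference, are without the length correction. How far they go with the length of the members was not tested. No value for RNA length or quality per sample was used here, and the part of length in the difference was not tested further.

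**Figure D5:**
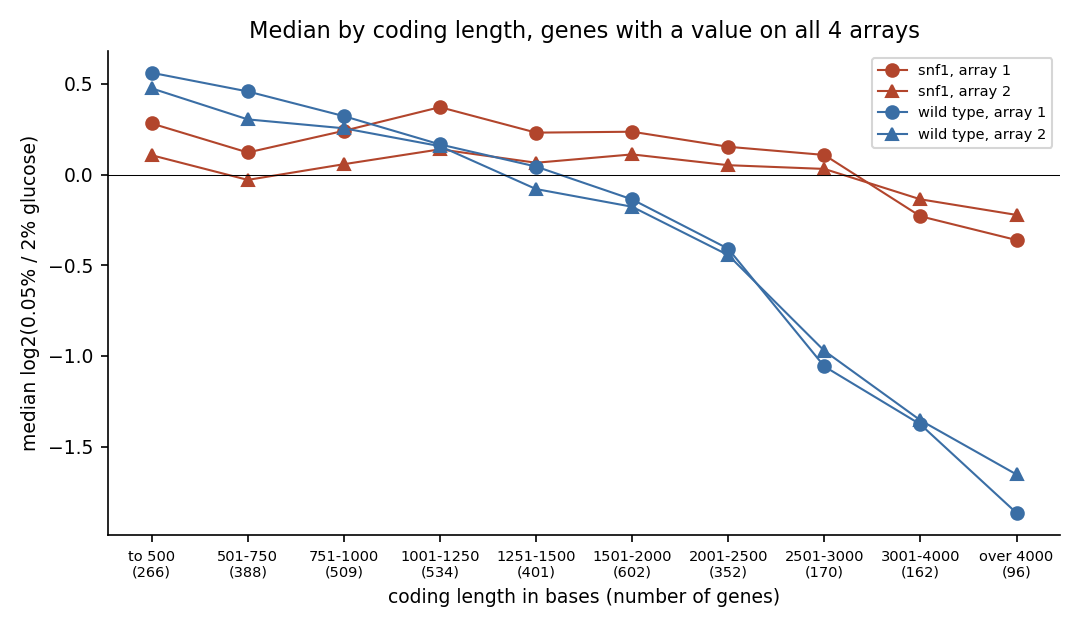
Median log2 ratio of 0.05% over 2% glucose (y axis) in 10 classes of coding length (x axis, with the number of genes), for genes with a value on all 4 low-glucose arrays. The wild-type arrays (blue) run from 0.56 and 0.47 in the shortest class to -1.87 and -1.65 in the longest, and the snf1 arrays (red) from 0.28 and 0.11 to -0.36 and -0.22.

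Of the 8 largest positive differences 7 were genes that fell in wild type. DED1, an RNA helicase of translation initiation, was 0.60 and 0.37 in snf1, against -3.11 and -3.05 in wild type (difference 3.56, adjusted p = 1.50e-05). PMA1, the plasma membrane proton pump, was 0.11 and -0.01, against -3.21 and -3.13 in wild type (difference 3.22). URA2, the first enzyme of pyrimidine synthesis, was -0.51 and -0.48, against -4.18 and -3.80 in wild type (difference 3.49). FAS1, a fatty acid synthase subunit, was -0.75 and -0.72, against -4.21 and -3.99 in wild type (difference 3.37). GCN1, which activates the kinase Gcn2, was -0.67 and -0.17, against -4.01 and -3.37 in wild type (difference 3.27). FKS1, glucan synthase, was -0.77 and -0.52, against -3.97 and -3.61 in wild type (difference 3.14). HOM3 completed them with a difference of 3.10. With the length trend removed the differences were 1.89 for URA2, 1.84 for FAS1, 1.51 for GCN1, 1.69 for FKS1 and 1.47 for ACC1, and all 5 were still called. The snf1 response of GCN1 turned positive in that setting (0.17), and those of FAS1, FKS1 and ACC1 lost their call. DED1 and HOM3 moved less, to 3.25 and 2.90.

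PRP6, a splicing factor, had the largest positive difference and the reverse pattern. It was 3.37 and 3.03 in snf1, a 9.20-fold rise, against -0.45 and -0.72 in wild type, where it was not called (difference 3.79, adjusted p = 0.0030). On the snf1 alkaline arrays it was 0.17, 0.15, -1.67 and -1.83, so both snf1 low-glucose values lay above all 4. That separation was a condition for naming a gene in either comparison. YRO2, the neighbouring gene and one of unknown function related to HSP30, was 1.27 and 0.77 in snf1, against 1.59 and 1.39 in wild type; it was chosen after its values were seen.

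Of the 8 largest negative differences MPC3, JEN1, PUT1 and NUP170 rose in wild type and were not called in snf1. MPC3, a subunit of the mitochondrial pyruvate carrier used in respiratory growth, was -0.21 and -0.39 in snf1, against 4.36 and 4.72 in wild type, a 23.3-fold rise there (difference -4.84, adjusted p = 1.90e-06). PUT1, proline oxidase, was 0.41 and 0.43, against 3.97 and 4.35 in wild type (difference -3.74, adjusted p = 8.61e-05). NUP170, a nuclear pore protein, was -0.39 and -0.10, against 2.28 and 3.01 in wild type (difference -2.89, adjusted p = 2.20e-05). The other members RGI1, SUC2, CYC7 and ICY1 rose in both genotypes, less in snf1. ICY1, a gene of unclear function, was 1.16 and 0.84, against 3.47 and 4.30 in wild type (difference -2.89, adjusted p = 1.16e-04). The call for RGI1 (difference -3.31, adjusted p = 0.0083) was lost after scaling, where the difference was -0.63, after quantile normalization (-2.13), without array 1 of snf1 and without array 2 of the wild type. The other 7 were called under scaling, quantile normalization, the length correction and each single array left out.

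The comparison of snf1 cells at low glucose with snf1 cells at alkaline pH asks what the mutant does under low glucose and not under another stress in which Snf1 takes part. The 2 groups differ in strain, time, medium change and treatment, which cannot be told apart, and the table's alkaline values may have been prepared differently, since their low values are not on the 0.001 step of the ratio seen on the low-glucose arrays (2.6 to 33.3% of them against 93.8 to 100.0%). The difference, low glucose minus alkaline pH, was called for 564 of 3290 genes (17.1%): 454 higher (13.8%) and 110 lower (3.34%) at low glucose. At least 2-fold, 112 were higher (3.4%) and 46 lower (1.4%). Of the called differences 80.5% were higher, 64.5% after the arrays were centred on their medians and 57.4% after scaling as well, since the median difference was 0.14 and centring moved it to 0.01. The count was 50 without array 1 of snf1 at low glucose and 248 without array 2, and 194 when the 6 snf1 arrays alone were fitted.

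HSP30 had the largest difference, 4.87 (adjusted p = 0.0043), with 5.54 and 5.63 at low glucose, against 1.30, 2.83, -0.76 and -0.48 at alkaline pH. PHO84 followed at 4.49 (adjusted p = 6.61e-04), with 3.99 and 3.32, against -0.28, -0.35, -1.62 and -1.06. PIR3 was 2.88 and 2.44, against 0.10, -0.06, 0.13 and 0.41 (difference 2.52, adjusted p = 1.42e-05). RTN2, a reticulon, was 2.90 and 2.70, against 0.23, 0.16, 0.47 and 0.12 (difference 2.56, adjusted p = 1.23e-05). ADH5, an alcohol dehydrogenase, had a difference of 2.51 and IRC7, a cysteine desulfhydrase, one of 2.37. SIS1 had a difference of 2.33 and PRP6 one of 4.00. In none of these genes did the low-glucose values overlap those at alkaline pH, which was a condition of the choice and no further result. RTN2, PIR3, PHO84, ADH5 and IRC7 were also called with either low-glucose array left out, while HSP30, PRP6 and SIS1 were not without array 1 (adjusted p = 0.086 for HSP30 and PRP6 and 0.0875 for SIS1).

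Lower at low glucose were HXT2, MEP1, YPT53, HSP12, ALD6, ENA2 and ALD4. HXT2 was -0.11 and -0.35 at low glucose, against 1.58, 2.04, 2.32 and 2.48 at alkaline pH (difference -2.33, adjusted p = 0.029). The ammonium permease MEP1 was 1.16 and -0.00, against 2.81, 2.58, 2.49 and 2.56 (difference -2.03, adjusted p = 0.0014), and was called with either low-glucose array left out. HSP12 was 3.06 and 1.31, against 4.59, 4.63, 3.17 and 3.45, with a difference of -1.77 (adjusted p = 0.034) that became -0.88 without array 2. ALD6 had a difference of -1.76 and ALD4, the mitochondrial aldehyde dehydrogenase, one of -1.64. The same rule named BUD14, but it stood at the shared values described above, so no direction is read from it. The calls other than MEP1 were lost with either low-glucose array left out.

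By lists, the members that differed were mostly higher at low glucose, as were 80.5% of all called differences. Over all tested genes 13.8% were called higher and 3.34% lower. Of 17 iron and copper genes 10 were higher and 1 lower, of 20 chaperones 8 and none, of 29 cell wall genes 10 and none, and of 14 phosphate genes 6 and none. Without array 1 of low glucose the higher counts were 2 for iron and copper, 1 for chaperones, 2 for the cell wall and 1 for phosphate, and without array 2 they were 7, 3, 6 and 4. After scaling, 6 iron and copper genes and 4 chaperones were higher, as were 232 of all 3290 genes tested. Counts after scaling are not given for the other lists. In the calcium and calcineurin list 5 of 12 were lower and none higher at low glucose, with none called without array 1 and 1 called without array 2. Of 114 ribosome biogenesis genes 2 were higher and 2 lower, with a median difference of 0.02. FIT3, a wall mannoprotein of iron uptake, differed by 1.15 (adjusted p = 0.0081) and CTR1 by 2.27 (adjusted p = 3.82e-05), with CTR1 at 2.17 and 2.08, against -0.02, 0.10, -0.35 and -0.30 at alkaline pH.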

How the data were processed

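RNA from yeast cultures was compared on 2-colour arrays carrying 1 spot per gene. The deposited values are the authors' log2 ratios for 6212 rows. Per the labels' protocols, 8 µg of total RNA was labelled indirectly with dUTP, and small or dim spots were left out. Background correction and normalization are not given in the sources used here. That the logarithm is to base 2 was read from the values of the low-glucose arrays. No intensities were used. The small number of arrays limits the precision, and saturation was not examined.

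Symbols came from RefSeq (R64), which matched 5678 rows. limma (3.58.1, R 4.3.3) fitted 4 group means and a dye term per gene to all 12 arrays. Moderated statistics were two-sided, with Benjamini-Hochberg adjustment over all genes tested and calls under 0.05. Genes needed both values at low glucose and at least 3 of 4 at alkaline pH. The fit was tested on simulated data. Every adjusted p in the text is from this limma fit, and every list count uses its calls.

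Named genes are the 15 largest called changes in each direction with 1 sign on both arrays. For each comparison of groups, the 8 largest called differences in each direction were added where the groups' arrays did not overlap. Both sets hold only genes with a standard name. Up to 4 called members of each list in each direction and 36 genes chosen for the pathway complete them. The members, the 43 lists and the tests were chosen with earlier results of these data known. In the 3 groups compared, arrays 1 and 2 share their dyes by number, and the deviations of same-numbered arrays correlated at 0.123 to 0.287. In wild type at alkaline pH arrays 1 and 2 have the opposite dyes. Promoter and protein sequences were not used here. Results for some genes are not reported here.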

Additional observations from a re-analysis of the deposited data

Results flagged for a closer look

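For 16 genes the response to low glucose differed between snf1 and wild type by the limma test of the difference itself. These are the 8 largest in each direction among genes with a standard name whose arrays did not overlap. The differences, snf1 minus wild type on the log2 scale, were 3.79 for PRP6, 3.56 for DED1, 3.49 for URA2, 3.37 for FAS1, 3.27 for GCN1, 3.22 for PMA1, 3.14 for FKS1 and 3.10 for HOM3. In the other direction they were -4.84 for MPC3, -4.60 for JEN1, -3.74 for PUT1, -3.31 for RGI1, -3.08 for SUC2, -2.96 for CYC7, -2.89 for NUP170 and -2.89 for ICY1. PRP6, DED1 and HOM3 stood above 0 on both snf1 arrays and below 0 on both wild-type arrays. MPC3 and NUP170 stood below 0 on both snf1 arrays and above 0 on both wild-type arrays. Causes were not tested.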

How the results depend on the processing

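For snf1 at low glucose, leaving out 1 array gave 817 to 1047 called genes and the 2-fold limit 496; the other alternatives gave 1160 to 2064. Wild-type counts were 2123 after scaling, 2071 among genes on all 12 arrays and 1667 at 2-fold. Counts of snf1 minus wild type were 467 after scaling, 589 after quantile normalization, 962 to 1255 with 1 array left out, 869 at 2-fold and 957 at an adjusted p under 0.01. Counts of snf1 low glucose minus alkaline pH were 194 with the 6 snf1 arrays alone, 270 with alkaline arrays averaged in pairs, 50 to 691 with 1 array left out, 158 at 2-fold and 211 under 0.01. Some of these settings hold fewer arrays, fewer genes or stricter limits, and the cause of the changed counts was not tested.

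These values changed sign. With the coding length trend removed, an alternative chosen after seeing the data, the snf1 response was 0.17 for GCN1 and 0.12 for IRA1. The wild-type response was then 1.28 for CAT8, -0.37 for CKS1, 0.72 for DUR12, 0.49 for FOX2, 0.11 for IRA1, 0.34 for PHO81, 1.14 for PYC1, 1.02 for RIM15, 0.12 for SIP1 and 0.29 for STV1, and the difference for RIM15 was -0.81. After scaling, differences were 0.50 for AIM17, -0.16 for ARX1, 0.59 for BDH2, -0.0799 for DBP2, 1.36 for EMI2, -0.26 for ERD2, 0.26 for GSY1, 1.81 for HXK1 and -0.38 for NSR1. After quantile normalization they were -0.24 for ARX1, -0.18 for DBP2, -0.50 for ERD2, -1.06 for NHP2, -0.40 for NSR1 and -1.07 for SSF1.

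With the replicate number as a block, 1705 genes were called in snf1, 3405 in wild type, 1486 for snf1 minus wild type and 538 for low glucose minus alkaline pH. In the groups compared the numbers go with the dye, so the pairing check does not show shared cultures. Promoter motifs were not run.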

Other observations

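In several other groups some members were called higher in the snf1 mutant, where 28.9% of all tested genes were. Histone genes were higher in 5 of 10 cases and lower in none in snf1 (array medians 0.47 and 0.14). Fewer were called with either array left out. In wild type 8 of 10 were higher and none lower. The difference was called lower in snf1 for 3 of 10 and higher for none. HHF1, a histone H4 gene, was 1.70 and 1.02 in snf1, against 0.61 and 0.57 in wild type, and that difference was not called. In the calcium and calcineurin list 6 of 15 were higher (3 without array 1, 4 without array 2), among them CMK2, a calmodulin-dependent kinase, at 2.23 and 2.36 in snf1, against 1.82 and 1.97 in wild type. Subunits of the vacuolar proton pump were higher in 3 of 12 cases in snf1 and lower in none (1 without array 1, 2 without array 2), a share near that of all genes, against 1 higher and 9 lower of 17 in wild type. VPH1, its vacuolar membrane subunit, was 0.42 and 0.56 in snf1, against -1.63 and -1.56 in wild type.

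Of the genes called with opposite signs on the 2 snf1 arrays, YHR127W had the widest gap, at -0.11 and 3.84 (adjusted p = 0.015). It was chosen after its values were seen.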
